A study of Mus musculus with 4 samples.

Results

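The IL-1 family ligands and receptors examined here were 10 genes, taken by symbol from the 31055 features of a droplet single-cell RNA-seq matrix of mouse lung tumors. All 10 were present. They comprised the ligands Il1a, Il1b, Il18 and Il33, the receptor antagonist Il1rn, the decoy receptor Il1r2, the IL-18 binding protein gene Il18bp, both IL-18 receptor subunits (Il18r1 and Il18rap) and the IL-33 receptor gene Il1rl1, which encodes ST2.

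Viable cells were collected from microdissected lung tumors of 4 female mice, 16 weeks after intratracheal Lenti-Cre. All carried Lkb1XTR/XTR together with Rosa26LSL-tdTomato. The 2 Restored mice also had FLPo-ERT2 on the other Rosa26 allele, and the 2 Non-Restored mice did not. Cre switches on the tdTomato reporter and inverts a gene trap in Lkb1 (Stk11), which truncates its transcripts and expresses GFP. FLPo-ERT2 removes the trap after tamoxifen, and mice of both cohorts received tamoxifen (4 mg doses) for 2 weeks. No map from cells to mice was used here, so the pooled matrix counted as 1 sample, the cohorts were not compared, and the mice may not have given every class the same number of cells.

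Filtering left 19488 cells, whose median depth was 1950 unique molecular identifiers (UMIs, one per captured RNA molecule). A cell was placed in a class when it held a UMI of at least 3 of the 8 markers of that class and at least 2 more than of any other class, which gave 13654 gated cells and 18 classes of at least 50 cells. No member of the family was a marker. In each of the 18 classes its own markers were in 49.3% to 78.4% of cells on average, against 4.4% to 33.4% for the next list. Levels are given in CPM, the UMIs of a gene per 1000000 UMIs of a class, with exact Poisson 95% intervals in parentheses. The intervals cover counting error only, and there is no spread between animals and no test.

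Cytokines of the IL-1 family act early in inflammation. IL-1 beta and IL-18 are made as precursors that caspase-1 cleaves in the inflammasome, whereas IL-1 alpha and IL-33 are alarmins that are active when released from damaged cells. The antagonist IL-1Ra and the decoy receptor IL-1R2 restrain IL-1, IL-18BP restrains IL-18, and the receptors signal through MyD88 to NF-kB. In lung, IL-33 from alveolar type II (ATII) cells acts on ST2-bearing regulatory T cells, innate lymphoid cells, basophils and mast cells.

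The members divided by cell type. By CPM, Il1b, Il1r2 and Il1rn were highest in neutrophil-like cells, which were shallow, whereas per cell each was higher in another class. Il18 and Il1a were highest in alveolar macrophage-like cells, and Il33 in ATII-like cells. Il18r1 was high in NK- and T-like cells and, at a like level, in alveolar type I (ATI)-like epithelial cells. Il18rap was high in basophil-, NK- and neutrophil-like cells, and Il1rl1 in Foxp3-marked T-like cells.

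**Figure D1:**
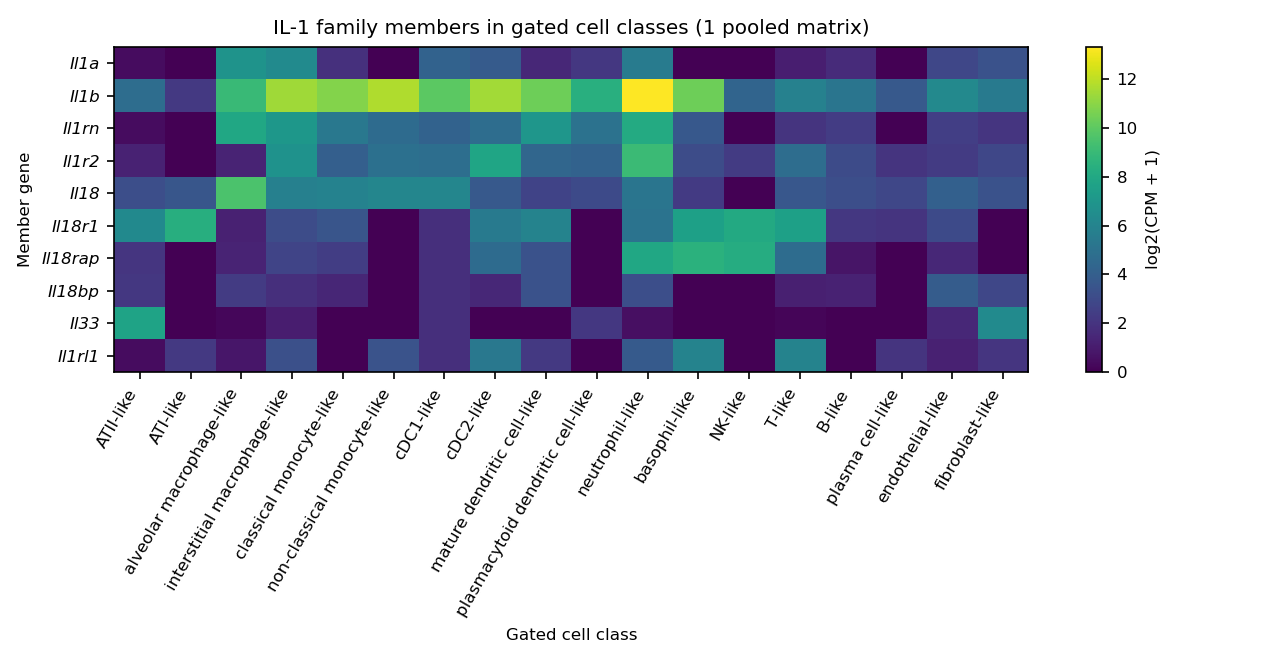
Level of each member (rows) in the 18 gated cell classes of at least 50 cells (columns), as log2(CPM + 1) of UMIs summed over the cells of a class. Il1b spans the myeloid classes with its highest level in neutrophil-like cells (10300 CPM), while Il33 is concentrated in ATII-like (211 CPM) and fibroblast-like cells (80.8 CPM).

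Il1b, the gene of the secreted ligand IL-1 beta, had the most UMIs of the members, 78909 in 6585 cells. It lies on chromosome 2 at 129364570 to 129371139 (mm10, minus strand). In neutrophil-like cells it reached 10300 CPM (10167 to 10434). Non-classical monocyte-like cells followed at 3431 CPM (3183 to 3694), cDC2-like cells at 2817 CPM (2720 to 2917) and interstitial macrophage-like cells at 2759 CPM (2716 to 2803). The neutrophil-like level was 3.002-fold that of non-classical monocyte-like cells and 3.73-fold (3.66 to 3.81, exact conditional interval) that of interstitial macrophage-like cells, whereas the cDC2-like and interstitial macrophage-like levels were not apart beyond counting error (log2 ratio 0.030, -0.026 to 0.085). Of the 707 Il1b UMIs of the 102 non-classical monocyte-like cells, 28.4% came from 5 cells. Classical monocyte-like cells had 1826 CPM, mature dendritic cell-like cells 1353, basophil-like cells 1316, cDC1-like cells 1003 and alveolar macrophage-like cells 519.

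Counted per cell, this order changed. The median cDC2-like cell held 12 Il1b UMIs, the median neutrophil-like cell 11 and the median interstitial macrophage-like cell 8. Mean values were 14.3, 13.2 and 11.4 UMIs per cell. Neutrophil-like cells were shallow, with a median of 904 UMIs in all against 3907 in interstitial macrophage-like and 4801 in cDC2-like cells, so the same number of Il1b UMIs made up a larger share of their total. By amount, the 1738 neutrophil-like cells held 22905 Il1b UMIs (29.0% of those in kept cells) and the 1358 interstitial macrophage-like cells 15432 (19.6%). Ungated cells held a further 29300, of which 13889 were in 807 cells that had most markers of interstitial macrophages without the required lead.

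**Figure D2:**
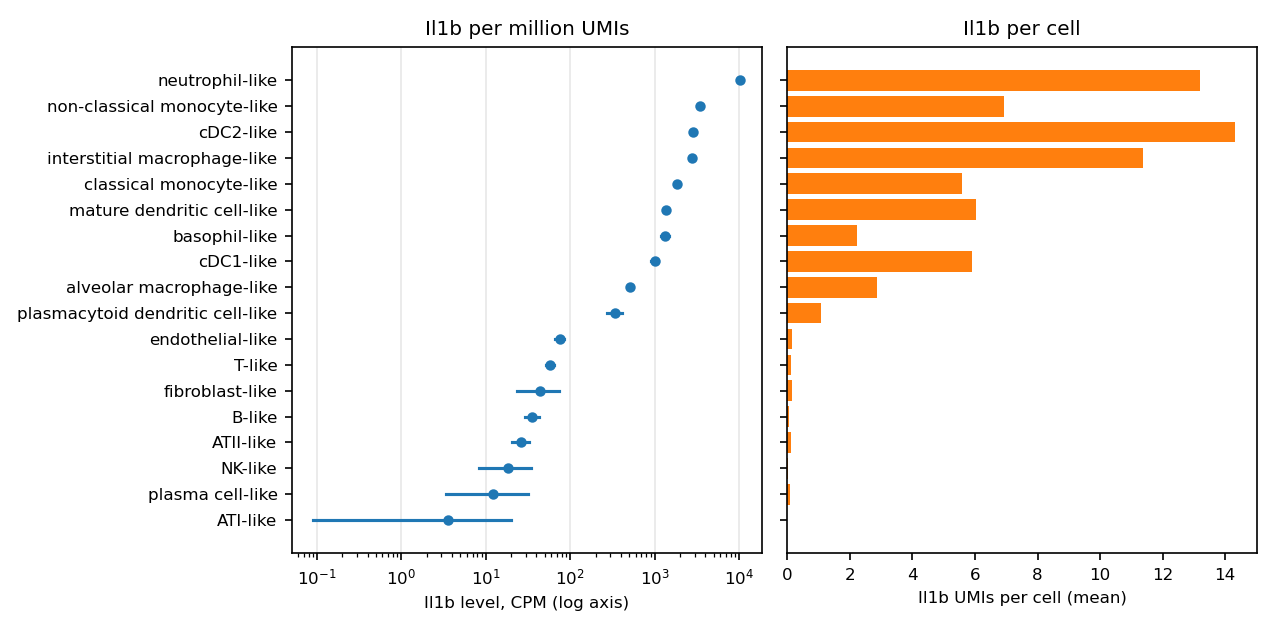
Il1b in the 18 gated classes. Left, CPM on a log axis with exact Poisson 95% intervals; right, mean Il1b UMIs per cell. Neutrophil-like cells lead in CPM, while cDC2-like (14.3), neutrophil-like (13.2) and interstitial macrophage-like cells (11.4) lie close together per cell.

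Detection gave the same picture of broad myeloid transcription. With every cell thinned to 1000 UMIs, Il1b was found in 94.9% (93.0 to 96.4, exact binomial interval) of 724 neutrophil-like cells, in 86.6% of non-classical monocyte-like and in 77.8% of cDC2-like cells. B-like cells, which should lack the gene and had a median depth of 1385 UMIs, had it in 2.04% of cells. Without thinning the neutrophil-like and B-like shares were 98.6% and 3.29%. Shallower neutrophil-like cells, with fewer than 1000 UMIs, are not in the thinned share. T-like cells carried Il1b at 57.8 CPM, against 35.6 CPM in B-like cells, and 43.7% of their 403 UMIs came from 5 of 3609 cells. ATI-like cells had 1 Il1b UMI, and ATII-like cells 75 UMIs (26.3 CPM), of which 5 cells held 65.3%.

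Il1a, which encodes the alarmin IL-1 alpha and neighbors Il1b on chromosome 2 (129299610 to 129309972, minus strand), had a different leading source. Its level was 115 CPM (106 to 124) in alveolar macrophage-like cells, 81.9 CPM (74.6 to 89.7) in interstitial macrophage-like cells and 45.9 CPM (37.4 to 55.7) in neutrophil-like cells, and each of these steps exceeded counting error. The ratio of Il1a to Il1b therefore differed widely between classes that express both. There were 22.1 Il1a UMIs per 100 Il1b UMIs (20.3 to 24.2) in alveolar macrophage-like cells, 2.97 (2.70 to 3.26) in interstitial macrophage-like cells and 0.445 (0.363 to 0.541) in neutrophil-like cells. Classical monocyte-like cells had 3 Il1a UMIs beside 2121 of Il1b. Outside the myeloid classes, 12 of 67 aerocyte-like cells, the capillary cells specialized for gas exchange, held 1 Il1a UMI each (82.1 CPM, 42.4 to 144), against 3.24 CPM in general capillary endothelial-like cells.

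In single alveolar macrophage-like cells thinned to 1000 UMIs, Il1b was detected in 51.2% (40.1 to 62.1) of the 86 cells with Il1a and in 23.1% (20.4 to 26.1) of those without. Interstitial macrophage-like cells gave 86.3% (76.7 to 92.9) and 71.7% (69.2 to 74.2). Thinned to 500 UMIs, alveolar macrophage-like cells gave 37.5% (24.9 to 51.5) and 18.03% (15.6 to 20.7), but interstitial macrophage-like cells 60% (45.2 to 73.6) and 59.2% (56.5 to 61.9). Il1a and Il1b were thus found together more often at both depths in alveolar macrophage-like cells, but at 1000 and not 500 UMIs in interstitial macrophage-like cells. Thinned to 2000 UMIs, interstitial macrophage-like cells gave 89.1% (82.7 to 93.8) and 80.2% (77.8 to 82.45). Neutrophil-like cells had Il1b in 90.9% (70.8 to 98.9) of 22 cells with Il1a and 95.01% of the others, which are not apart.

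The 250 bases upstream of the annotated start sites of Il1b and Il1a, and of the neutrophil-high receptor gene Il18rap, are shown (RefSeq, GRCm38.p6, each written from 5′ to 3′ along its own gene's strand). They were chosen because all 3 genes were found in neutrophil-like cells but differed in leading class. Capitals mark matches on either strand to TATAAA (the TATA box core, in 12.4% of the 32851 windows of this length), TTNNGCAA (a C/EBP half-palindrome, 9.56%) and GAGGAA (a PU.1 core, 23.2%). The NF-kB motif was searched as well (1.41% of windows).
Il1b, chr2:129371140-129371389, minus strand: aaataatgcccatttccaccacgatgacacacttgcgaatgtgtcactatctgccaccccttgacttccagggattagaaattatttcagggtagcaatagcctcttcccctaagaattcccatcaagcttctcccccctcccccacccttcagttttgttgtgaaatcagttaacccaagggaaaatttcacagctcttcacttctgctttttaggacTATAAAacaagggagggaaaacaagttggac
Il1a, chr2:129309973-129310222, minus strand: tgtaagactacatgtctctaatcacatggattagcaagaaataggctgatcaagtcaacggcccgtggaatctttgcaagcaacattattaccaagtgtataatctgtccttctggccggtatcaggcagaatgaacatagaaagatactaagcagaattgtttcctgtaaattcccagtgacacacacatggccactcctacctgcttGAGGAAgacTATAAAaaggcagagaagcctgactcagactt
Il18rap, chr1:40515112-40515361, plus strand: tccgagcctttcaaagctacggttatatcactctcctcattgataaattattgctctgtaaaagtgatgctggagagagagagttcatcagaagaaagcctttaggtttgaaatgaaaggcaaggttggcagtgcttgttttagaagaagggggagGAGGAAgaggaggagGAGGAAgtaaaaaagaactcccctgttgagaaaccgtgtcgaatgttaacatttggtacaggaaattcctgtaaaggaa
The Il1b window held TATAAA beginning 31 bases before the start site and the Il1a window held it 32 bases before, with GAGGAA 41 bases before. The Il18rap window had no TATAAA and held GAGGAA at 94 and 79 bases before the start. None of the 3 held TTNNGCAA or the NF-kB motif. Among all 16 windows of the 10 members, the NF-kB motif was matched in a window of Il1rn, 51 bases before a start site. These are matches of letters and not measured binding.

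Il1rn, which encodes the secreted antagonist IL-1Ra (chromosome 2, 24336853 to 24351494, plus strand), was at 288 CPM (266 to 311) in neutrophil-like cells. Alveolar macrophage-like cells had 247 CPM (234 to 261), which was 1.16-fold lower. Interstitial macrophage-like cells had 131 CPM (122 to 141) and mature dendritic cell-like cells 127 CPM (98.5 to 160), which were not apart. B-like cells had 4.23 CPM and ATI-like cells 0 UMIs, which allows up to 10.8 CPM. After thinning, Il1rn was in 19.6% of neutrophil-like and 19.6% of alveolar macrophage-like cells, against 0.136% of B-like cells. Unthinned, these were 22.8%, 57.8% and 0.289%, and the median depths 904, 5560 and 1385 UMIs. Counted per cell, Il1rn averaged 0.368 UMIs in neutrophil-like and 0.541 in interstitial macrophage-like cells. The 971 alveolar macrophage-like cells held 1331 Il1rn UMIs, against 640 in the 1738 neutrophil-like cells.

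The ratio of Il1rn to Il1b UMIs differed widely between classes. Alveolar macrophage-like cells held 47.7 Il1rn UMIs per 100 Il1b UMIs (44.6 to 50.9), mature dendritic cell-like cells 9.36 (7.21 to 12.0), interstitial macrophage-like cells 4.76 (4.41 to 5.12), neutrophil-like cells 2.79 (2.58 to 3.02) and cDC2-like cells 0.914 (0.611 to 1.32). The ratio in alveolar macrophage-like cells was 17.1 times that in neutrophil-like cells and 10.0 times that in interstitial macrophage-like cells. Since capture differs between genes, only the change in this ratio from class to class can be read, not its absolute value. Alveolar macrophage-like cells had far less Il1b than neutrophil-like cells (519 against 10300 CPM) and slightly less Il1rn (247 against 288 CPM). Interstitial macrophage-like cells had 2759 CPM of Il1b and 131 CPM of Il1rn. In thinned alveolar macrophage-like cells, Il1rn was found in 28.0% (22.5 to 34.1) of cells with Il1b and 16.7% (14.0 to 19.6) of cells without, so the antagonist did not mark a set of cells apart from the ligand. Within interstitial macrophage-like cells the shares were 11.04% (9.15 to 13.2) and 4.88% (2.92 to 7.60), but their intervals overlapped at 500 UMIs (7.83% and 4.34%).

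**Figure D3:**
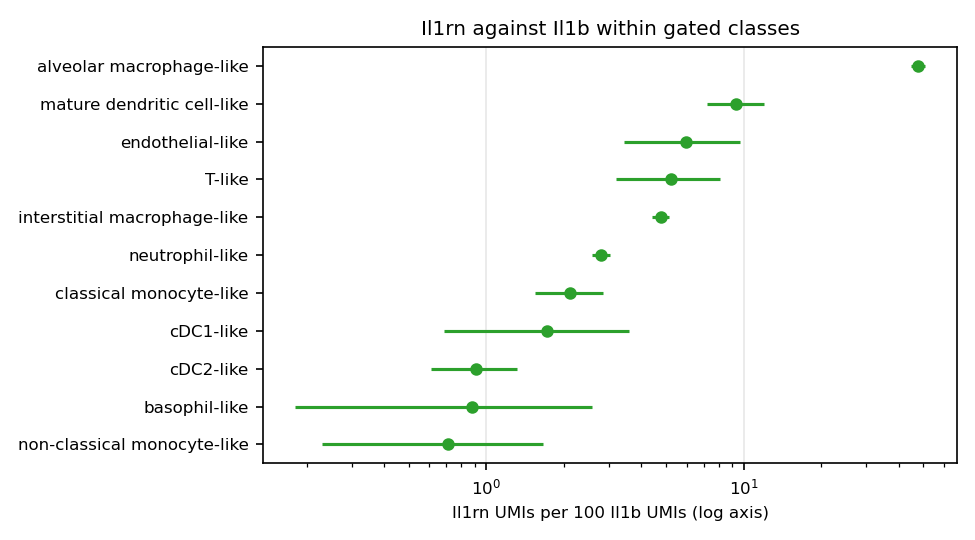
Il1rn UMIs per 100 Il1b UMIs (log axis) in the gated classes with at least 300 UMIs of both genes together, with exact conditional 95% intervals. Alveolar macrophage-like cells stand at 47.7, neutrophil-like cells at 2.79 and cDC2-like cells at 0.914.

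Alveolar macrophage-like cells also carried the tdTomato transcript, at 2875 CPM and in 95.3% of cells, compared with 5712 CPM in ATII-like and 122 CPM in B-like cells. The study left tdTomato-positive cells outside the epithelium out, and that step was not applied here. The part of these cells' reporter signal in their Il1a, Il1rn and Il18 levels was not tested.

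Neutrophil-like cells with a UMI of Siglecf, a marker of a tumor-associated neutrophil state, numbered 47 of 1738. They had 693 CPM of Il1rn (530 to 890) against 271 CPM (250 to 294) in the other neutrophil-like cells, a 2.55-fold difference (1.93 to 3.33). The 5 cells with most held 60.7% of those 61 UMIs. Il1b differed by 1.10-fold (1.03 to 1.17) between the same groups, at 11275 and 10260 CPM. Siglecf-marked cells were deeper, at a median of 1100 against 903 UMIs, and the part of depth in the Il1rn difference was not tested. Siglecf was also among the 8 gate markers of alveolar macrophage-like cells, a class high in Il1rn and Il1a. The same 47 cells held 1.21 Il1a UMIs per 100 of Il1b (0.622 to 2.12), against 0.411 (0.330 to 0.505) in the others. Whether they carried RNA of alveolar macrophages was not tested.

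Il1r2, the gene of a decoy receptor that binds IL-1 without signaling (chromosome 1, 40074079 to 40125231, plus strand), was at 540 CPM (510 to 571) in neutrophil-like cells, 225 CPM (199 to 255) in cDC2-like cells and 111 CPM (103 to 120) in interstitial macrophage-like cells. The step from neutrophil-like to cDC2-like was 2.39-fold and that from cDC2-like to interstitial macrophage-like 2.03-fold, both beyond counting error. These steps are those of gated cells. Ungated cells held 2114 of the 4488 Il1r2 UMIs. Of these, 1238 were in 807 cells with most markers of interstitial macrophages, against 622 in the gated class. A further 385 were in 248 cells with most markers of cDC2-like cells. Alveolar macrophage-like cells, which were high in Il1rn, had only 8 Il1r2 UMIs in 971 cells (1.49 CPM, 0.642 to 2.93), below the 7.41 CPM of B-like cells. The secreted antagonist and the decoy receptor were both high in neutrophil-like cells and both present in interstitial macrophage-like cells, whereas alveolar macrophage-like cells had the antagonist with hardly any decoy receptor. Thinned shares with Il1r2 were 38.5% (35.0 to 42.2) of neutrophil-like, 16.7% of cDC2-like and 0.340% of B-like cells, or 41.1%, 51.8% and 0.520% unthinned. Counted per cell, cDC2-like cells had more, with 254 Il1r2 UMIs in 222 cells against 1200 in 1738 neutrophil-like cells.

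Among T-like cells, Il1r2 was highest in those with Foxp3, the regulatory T cell factor. Regulatory T-like cells had 83.5 CPM (62.0 to 110), CD4 T-like cells 47.8 CPM (35.3 to 63.1) and CD8 T-like cells 10.5 CPM (5.58 to 17.9). The regulatory T-like level was 7.97-fold (4.27 to 16.0) that of CD8 T-like cells and 1.75-fold (1.16 to 2.65) that of CD4 T-like cells.

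Among the other IL-1 receptor genes, Il1r1, the signaling receptor for IL-1, was highest among the 18 classes in fibroblast-like cells at 112 CPM (78.3 to 155), followed by ATI-like cells at 43.3 CPM and endothelial-like cells at 35.4 CPM, and had 0 UMIs in B-like cells. Among T-like subsets, gamma-delta T-like cells had 127 CPM (88.3 to 178), against 11.7 CPM in CD4 and 2.42 CPM in CD8 T-like cells. Il1rap, the accessory chain that IL-1 and IL-33 receptors share, was at 273 CPM (252 to 296) in neutrophil-like cells, which held 58.1% of its gated UMIs, and at 42.3 CPM in basophil-like cells. All 4 listed receptor genes, which also include Il1rl2 and Sigirr, reached 10 CPM in at least 1 class, as did 40% of all features and 85.9% of the 14135 genes with at least 20 UMIs in gated cells. Of the other 5 ligand and antagonist genes listed, only the IL-36 gamma gene Il1f9 did so. It had 239 CPM in neutrophil-like cells, which held 97.4% of its UMIs in gated cells.

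Il18, the gene of the IL-18 precursor (chromosome 9, 50554827 to 50581840, plus strand), was highest in alveolar macrophage-like cells. Alveolar macrophage-like cells had 755 CPM (732 to 778) and a median of 4 UMIs per cell. The next level, 69.0 CPM (45.9 to 99.8) in cDC1-like cells, was 10.9-fold lower, and the levels of non-classical monocyte-like (67.9 CPM), classical monocyte-like (58.6 CPM) and interstitial macrophage-like cells (54.0 CPM) were not apart from one another beyond counting error. With a gate that asked for a lead of only 1 marker, the second class was non-classical monocyte-like at 184 CPM, against 749 CPM in alveolar macrophage-like cells. Between the macrophage classes the difference was 14.0-fold (12.4 to 15.8). Ungated cells held 4256 of the 9024 Il18 UMIs, of which 1981 were in 460 cells with most markers of alveolar macrophages and 1667 in cells with under 3 markers of any list. Thinned to 1000 UMIs, 50.7% (47.5 to 53.9) of alveolar macrophage-like cells had an Il18 UMI, compared with 4.90% of interstitial macrophage-like and 0.748% of B-like cells, and unthinned shares were 95.1%, 17.4% and 0.982%. Epithelial levels were low. ATII-like cells had 8.07 CPM (5.11 to 12.1), equal within error to the 8.11 CPM of B-like cells, and ATI-like cells had 3 UMIs.

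Il18r1, the gene of the ligand-binding IL-18 receptor subunit (chromosome 1, 40465552 to 40500854, plus strand), was highest in NK-, T- and basophil-like cells and in epithelium. ATI-like cells had 328 CPM (264 to 403), NK-like cells 273 CPM (229 to 323), basophil-like cells 189 CPM (140 to 249) and T-like cells 188 CPM (178 to 199). The top step, ATI-like over NK-like, was not beyond counting error (log2 ratio 0.27, -0.13 to 0.66), and neither was that of basophil- over T-like cells. ATII-like cells followed at 80.7 CPM (70.6 to 91.8), not apart from the 62.4 CPM of mature dendritic cell-like cells. cDC2-like cells had 42.6 CPM and neutrophil-like cells 32.4 CPM. Levels were 3.53 CPM in B-like, 1.30 CPM in alveolar macrophage-like and 6.86 CPM in endothelial-like cells, and fibroblast-like cells had 0 UMIs.

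The epithelial signal was spread over many cells. It came from 55 of 112 ATI-like and 173 of 626 ATII-like cells, and the 5 cells with most UMIs held 20.9% and 7.39% of it. After thinning, 28.3% (19.98 to 37.9) of 106 ATI-like cells had Il18r1, against 21.6% of NK-like and 0.272% of B-like cells, with unthinned shares of 49.1%, 26.8% and 0.347%. Median depths of these classes were 2196, 1175 and 1385 UMIs. The ATI-like level was 4.07-fold (3.16 to 5.21) that of ATII-like cells. Nearly all of these cells carried the tdTomato transcript of recombined cells, 106 of 112 ATI-like and 616 of 626 ATII-like. In the cells with tdTomato alone, the ATI-like Il18r1 level was 331 CPM and the ATII-like level 79.8 CPM. The 20 ciliated-like cells, too few to be counted as a class, had 346 CPM (235 to 492) in 15 cells.

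Il18r1 begins 136 bases past the annotated end of Il1rl1 on the same strand, and Il18rap follows 14507 bases further on. Il1rl1 had 1 UMI each in ATI-like and ATII-like cells. Where the transcripts counted as Il18r1 there began was not tested.

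Il18rap encodes the accessory subunit that IL-18 needs to signal. It was at 369 CPM (299 to 451) in basophil-like cells, 305 CPM (258 to 358) in NK-like cells and 247 CPM (227 to 268) in neutrophil-like cells, and then fell 9.95-fold to 24.8 CPM (21.3 to 28.8) in T-like cells. Basophil-like and NK-like levels were not apart, and NK-like cells were 1.24-fold (1.02 to 1.48) above neutrophil-like cells. ATI-like cells had 0 UMIs, which allows up to 10.8 CPM, and ATII-like cells 9 UMIs (3.16 CPM). Thinned shares were 29.7% in basophil-like, 25.1% in NK-like, 18.6% in neutrophil-like and 0.068% in B-like cells, and unthinned ones 45.5%, 29.5%, 24.5% and 0.058%.

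The 2 subunits were thus unequally distributed. Neutrophil-like cells held 763 Il18rap UMIs per 100 of Il18r1 (596 to 989), basophil-like cells 196 (138 to 282), NK-like cells 112 (88.1 to 142), T-like cells 13.2 (11.2 to 15.4), ATII-like cells 3.91 (1.77 to 7.56) and ATI-like cells 0 (up to 4.14). The neutrophil-like ratio was 6.81 times the NK-like ratio, and the NK-like ratio was 8.502 times the T-like ratio. Both subunits were high together in NK-like and basophil-like cells only, among these 6 classes. In thinned NK-like cells, Il18rap was detected in 23.2% (12.98 to 36.4) of cells with Il18r1 and 25.6% (19.8 to 32.2) of cells without, which are not apart.

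**Figure D4:**
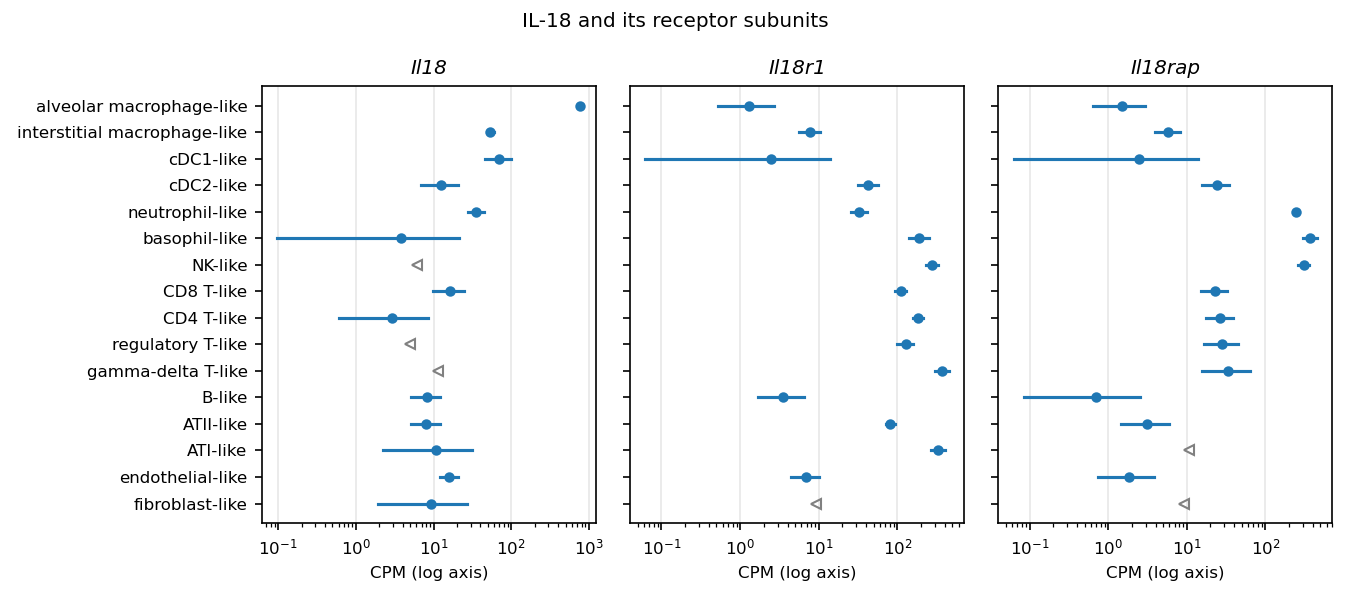
CPM of Il18, Il18r1 and Il18rap (log axes) in gated classes and T-like subsets, with exact Poisson 95% intervals; open triangles mark classes with 0 UMIs, drawn at the level of 3 UMIs. Il18 stands out in alveolar macrophage-like cells (755 CPM), Il18r1 is high in NK- and T-like and ATI-like cells (328 CPM in the last), and Il18rap is high in neutrophil-, basophil- and NK-like cells.

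Within T-like cells, Il18r1 ranged widely. Gamma-delta T-like cells had 368 CPM (298 to 448), CD4 T-like cells 183 CPM (158 to 211), regulatory T-like cells 127 CPM (76 UMIs) and CD8 T-like cells 110 CPM (92.0 to 130). The gamma-delta T-like level was 2.01-fold (1.56 to 2.57) that of CD4 and 3.35-fold (2.56 to 4.38) that of CD8 T-like cells, while regulatory and CD8 T-like cells were not apart (1.16-fold, 0.863 to 1.54). Il18rap was low in all 4 subsets, between 22.6 and 33.8 CPM. Ifng, an interferon gene that IL-18 is known to induce in lymphocytes, was at 230 CPM (190 to 277) in NK-like cells and 31.4 CPM in T-like cells.

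Il18bp, which encodes the secreted IL-18 inhibitor (chromosome 7, 102014885 to 102018690, minus strand), was scarce, with 192 UMIs in all kept cells. Endothelial-like cells had 52 of them at 13.7 CPM (10.2 to 17.99), and 46 of these were in general capillary endothelial-like cells. Levels in mature dendritic cell-like (9.18 CPM) and neutrophil-like cells (8.09 CPM) were not apart from it. Alveolar macrophage-like cells, the main Il18 source, had 21 Il18bp UMIs, or 0.517 per 100 Il18 UMIs (0.320 to 0.791), against 86.7 (58.6 to 128) in endothelial-like cells. Thinned, Il18bp was in 1.35% of endothelial-like and 0.068% of B-like cells (2.67% and 0.231% unthinned, at median depths of 1892 and 1385 UMIs). Its 3′ end overlaps Numa1 on the opposite strand by 80 bases.

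Il33, the gene of the nuclear alarmin IL-33 (chromosome 19, 29925114 to 29960718, plus strand), was concentrated in ATII-like cells. These held 603 of 669 UMIs, or 90.1%, at 211 CPM (195 to 229). Fibroblast-like cells had 80.8 CPM (52.7 to 118), 2.62-fold lower, and 5 of their 91 cells held 80.8% of those 26 UMIs. ATI-like cells had 0 UMIs, which put the ATII-like level 19.5-fold above the limit of 3 UMIs. The exact conditional interval of this ratio began at 15.8-fold. Endothelial-like cells had 7 UMIs in 1798 cells (1.85 CPM), and B-like cells 0 UMIs.

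Il33 was uneven among ATII-like cells. No UMI was seen in 358 of the 626 cells, 129 had 1, 115 had 2 to 4, 24 had 5 or more, and the highest had 15. Thinned to 1000 UMIs, 16.1% (13.2 to 19.2) of ATII-like cells had Il33, compared with 0 of 1470 B-like cells, which allows a share of up to 0.204%. Unthinned, the share was 42.8% at a median depth of 4455 UMIs, against 0 of B-like cells at 1385. Il18r1 and Il33 occurred together in 82 ATII-like cells, Il33 without Il18r1 in 186, Il18r1 without Il33 in 91, and neither in 267. ATII-like cells thus carried both members, and ATI-like cells had a higher Il18r1 level with no Il33 UMI.

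Upstream windows of both annotated start sites of Il33 are printed because the gene was specific to one epithelial class (RefSeq, GRCm38.p6, motifs in capitals as above).
Il33, upstream start, chr19:29924863-29925112, plus strand: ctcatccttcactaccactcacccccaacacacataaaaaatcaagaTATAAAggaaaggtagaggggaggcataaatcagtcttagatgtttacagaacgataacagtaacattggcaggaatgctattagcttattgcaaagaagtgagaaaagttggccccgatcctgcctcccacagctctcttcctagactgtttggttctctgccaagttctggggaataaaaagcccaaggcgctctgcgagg
Il33, downstream start, chr19:29945540-29945789, plus strand: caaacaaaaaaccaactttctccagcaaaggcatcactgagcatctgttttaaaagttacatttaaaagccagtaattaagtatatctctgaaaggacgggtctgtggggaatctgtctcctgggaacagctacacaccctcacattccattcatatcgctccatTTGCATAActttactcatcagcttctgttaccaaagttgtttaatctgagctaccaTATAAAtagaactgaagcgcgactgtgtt
The downstream window held TATAAA beginning 29 bases before the start and TTNNGCAA on the opposite strand, 85 bases before. In the upstream window TATAAA lay 203 bases before the start, and the other motifs had no match. Counts from RNA 3′ ends do not show which start was used.

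Il1rl1 encodes ST2, the receptor for IL-33 (chromosome 1, 40429570 to 40465415, plus strand). Basophil-like cells had 61.6 CPM (16 UMIs in 154 cells) and T-like cells 60.8 CPM (55.1 to 66.9), which were not apart, followed by cDC2-like cells at 39.1 CPM (28.4 to 52.4). Regulatory T-like cells held 174 of the 424 UMIs of T-like cells, and T-like cells placed in none of the 4 subsets held 169, at 44.0 CPM (37.6 to 51.1). The regulatory T-like level was 291 CPM (249 to 337), which was 4.2-fold (3.17 to 5.62) the 69.2 CPM of CD4 T-like cells and 40.1-fold (20.6 to 89.1) the 7.26 CPM of CD8 T-like cells. In thinned regulatory T-like cells 21.6% (16.1 to 28.0) had Il1rl1, against 4.33% of CD4 T-like cells and 0 of B-like cells (up to 0.204%). Unthinned, 37.4%, 6.52% and 0 of these cells had it, and their median depths were 1974, 1730 and 1385 UMIs. The 16 ILC2-like cells had 13 UMIs (369 CPM, 196 to 630), and no cell was gated as mast cell-like, so the classic ST2-high mast cell was not described. The study reported a rare population of putative mast cells, whose relative abundance changed with Lkb1 restoration. Whether those cells are among the basophil-like cells here was not tested.

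Of 5 listed genes that IL-18 or IL-33 responsive lymphocytes are known to make, 4 (Areg, Il13, Ifng and Csf2) reached 10 CPM in at least 1 of the 18 classes. Il5 did not, with 5 UMIs in T-like cells and at most 3.08 CPM in any of them. Among the 18 classes Csf2 was highest in ATII-like cells at 18.9 CPM. Most of the 30 gated Il5 UMIs lay in classes under 50 cells, whose levels of it are not given. Il5 and Il13 were also gate markers of ILC2-like cells. Areg, the growth factor amphiregulin, was at 556 CPM (498 to 619) in regulatory T-like cells, against 82.9 CPM in CD4 and 17.7 CPM in CD8 T-like cells, though ATI-like cells had 1039 CPM. Il13 was at 997 CPM (879 to 1126) in basophil-like cells, which held 74.0% of its gated UMIs. Its level in the 16 ILC2-like cells, too few to be counted as a class, is not given. Regulatory T-like cells had Il13 at 23.4 CPM (12.8 to 39.2). Il1rl1 and Il18r1 are neighbors in the genome. T-like cells thinned to 1000 UMIs with Il1rl1 had Il18r1 in 8.13% (3.97 to 14.4) of 123 cells, and those without it in 16.3% (15.1 to 17.6). At 500 UMIs the shares were 6.32% (2.35 to 13.2) and 9.11% (8.17 to 10.1), which are not apart. At 2000 UMIs, a depth that 1131 T-like cells reached, they were 11.2% (5.74 to 19.2) and 26.4% (23.8 to 29.2). Within regulatory T-like cells the shares were 11.6% (3.89 to 25.1) and 9.62% (5.48 to 15.4) at 1000 UMIs. They were 12.8% (4.30 to 27.4) and 16.9% (9.05 to 27.7) at 2000 UMIs, and were not apart at either depth. The part of the mix of subsets in the T-like difference was not tested.

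**Figure D5:**
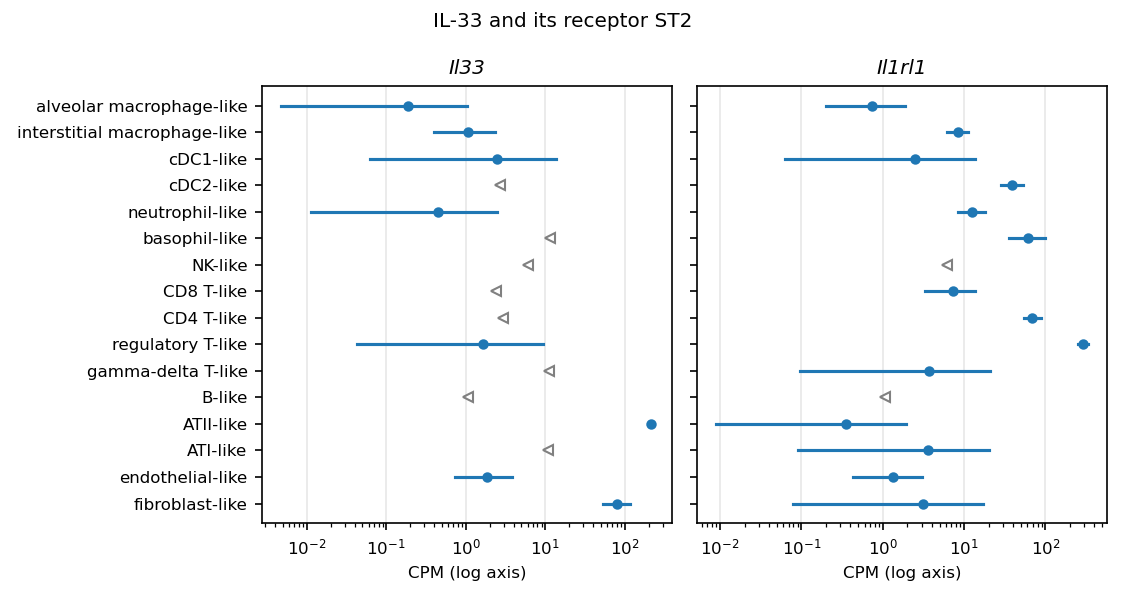
CPM of Il33 and Il1rl1 (log axes) in gated classes and T-like subsets, with exact Poisson 95% intervals; open triangles mark classes with 0 UMIs, drawn at the level of 3 UMIs. Il33 lies in ATII-like (211 CPM) and fibroblast-like cells, and Il1rl1 is highest, among the plotted classes, in regulatory T-like cells (291 CPM).

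Set against all genes, the members were counted by a fixed fold: a CPM at least 4 times that of all other gated cells together, with 1 CPM added to each, among 14135 genes with at least 20 UMIs. In neutrophil-like cells 4 of the 10 members passed (Il1b, Il1rn, Il1r2 and Il18rap), where 3.34% of all genes did. Alveolar macrophage-like cells had 3 (Il1a, Il1rn and Il18), beside 2.89% of all genes. NK-like cells had 2 (Il18r1 and Il18rap, 1.61%), as did T-like cells (Il18r1 and Il1rl1, 2.23%). Basophil-like (Il18rap, 2.32%), ATII-like (Il33, 6.46%) and ATI-like cells (Il18r1, 5.35%) each had 1. No member passed in interstitial macrophage-like (1.37%), cDC2-like (0.927%) or endothelial-like cells (7.87%), although the first 2 of these had high Il1b levels.

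All 8 inflammasome and processing genes and all 7 receptor-proximal genes listed reached 10 CPM in at least 1 class, as 85.9% of the genes with at least 20 UMIs did. Some did so narrowly. Nlrc4, an inflammasome sensor, peaked at 11.4 CPM in interstitial macrophage-like cells, and Nlrp1b reached 14.6 CPM on 3 UMIs. Nlrp3, the sensor that licenses caspase-1 cleavage of IL-1 beta, was at 789 CPM (685 to 905) in basophil-like and 539 CPM (509 to 571) in neutrophil-like cells, above the 148 CPM of interstitial macrophage-like cells. Casp1 itself was at 63.7 CPM in classical monocyte-like and 44.0 CPM in alveolar macrophage-like cells, with 38.5 CPM in B-like cells, and so was far more evenly spread than its substrates. Casp4, a non-canonical inflammasome caspase, was at 155 CPM (139 to 172) in neutrophil-like cells. Myd88, the adaptor of the receptors, was highest in neutrophil-like cells at 195 CPM (177 to 214), against 13.1 CPM in B-like cells.

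Of 8 genes known to be induced by IL-1 or Toll-like receptors through NF-kB, 7 reached 10 CPM, beside the same 85.9%. Basophil-like cells had the highest levels of Nfkbia (6035 CPM), Nfkbiz (2190 CPM), Tnfaip3 (1039 CPM), Ptgs2 (1201 CPM) and Il6 (2051 CPM). The neutrophil chemoattractant gene Cxcl2 was at 5174 CPM in interstitial macrophage-like, 4521 CPM in alveolar macrophage-like and 3694 CPM in neutrophil-like cells. Csf3, which encodes G-CSF, had at most 3 UMIs in any class.

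Genes whose levels ran most like those of a member over the 18 classes were ranked by Pearson's r of log2(CPM + 1), given as a description since the classes share libraries. For Il1b they were Cd300a (r = 0.952), Synj1 (0.946) and Pirb (0.940), and for Il1rn Slc7a11 (0.932), Cxcl2 (0.919) and Pira2 (0.906). Il1a ran most like AU022793 (0.886), Lrp12 (0.868) and Rab3il1 (0.841), and Il1r2 like Cass4 (0.879), Jaml (0.858) and Dhrs9 (0.832). For Il18 the genes were Siglec1 (0.843), Ms4a8a (0.840) and Ppt1 (0.829), for Il18r1 Fam110a (0.756) and Tox (0.741), and for Il18rap Sytl3 (0.842), Nkg7 (0.838) and Rab37 (0.829). Il33 ran like Col6a1 (0.888), Mme (0.871) and Bicc1 (0.816). Il1rl1 had the weakest matches, Adam8 (0.666), B930036N10Rik (0.655) and Nfkbia (0.647), and Il18bp, with under 200 UMIs in gated cells, was not ranked.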

How the data were processed

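Viable cells from lung tumors of 4 mice were profiled by droplet 3′ single-cell RNA-seq. The authors aligned reads to mm10 with GFP and TdTomato added, using Cell Ranger, and deposited 1 matrix of UMI counts (genes by 20351 cells). Cells with at least 200 genes and under the 98th percentile of genes (2713) and mitochondrial share (13.4%) were kept. The study's exclusion of tdTomato-positive cells outside the epithelium was not applied, and doublets were kept in the main setting. Members, marker lists and pathway lists were chosen with earlier results of these data known, and the marker gate was set after the gate counts were seen. The gates rebuild cell types, so names may differ from the study's.

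UMIs were summed per class as CPM (per 1000000 UMIs of the class). Intervals are exact Poisson, Clopper-Pearson or conditional 95% intervals (scipy 1.17.1) and cover counting error only. A count of 0 was given a limit of 3 UMIs. Shares of cells used cells thinned to 1000 UMIs. Pairs of classes beyond neighbors in the order were chosen after the levels were seen. The named genes were all members, the listed pathway genes and, per member with at least 200 UMIs, the 3 genes most alike over classes. One of these and 1 allele that all mice shared are not reported here. Ratios and the 4-fold rule were tested on simulated data. Older symbols (such as Il1f9) were matched through RefSeq. All 10 members had promoter windows in RefSeq (GRCm38.p6), and gene positions are from GENCODE vM21. Louvain clusters (igraph 0.11.9) and a rebuilt Scrublet score were alternatives.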

Additional observations from a re-analysis of the deposited data

How the results depend on the processing

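No paired analysis was possible because the pooled matrix gave no value per mouse and no test. Levels and ratios were recomputed under 8 alternatives. These included stricter and looser gates, Louvain clusters without the members, at least 500 genes, and no or 95th percentile upper cut-offs. Another removed the 478 cells (2.45%) over a doublet score threshold. Only 48.6% of simulated doublets passed that threshold, and the expected doublet share was 8%, so doublets may remain. The last, a gate with a lead of 1 marker, was added after seeing the data. The leading class was kept in 75 of 80 combinations of member and alternative. T-like cells passed basophil-like cells for Il1rl1, which were not apart in the main setting, under 4 alternatives, and in the clusters, where ATI and ATII markers were not separated and no cluster was ATI-like, NK-like cells led for Il18r1.

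Beyond counting error, the following moved. The log2 ratio of neutrophil-like over non-classical monocyte-like Il1b, 1.59, became 1.78 with clusters, 1.37 with 500 genes and 1.74 without doublets. Il1r2 in neutrophil-like over cDC2-like cells, 1.26, became 1.51 with the stricter gate and 0.80 with a lead of 1. Il1rn in neutrophil-like over alveolar macrophage-like cells, 0.22, became 0.81 with clusters, and Il1a in alveolar over interstitial macrophage-like cells, 0.49, became 0.81 with a lead of 1. Il1rn per 100 Il1b UMIs in alveolar macrophage-like cells, 47.7, was 51.2 with the stricter gate, 43.3 with a lead of 1, 34.3 with clusters and 43.2 with 95th percentile cut-offs. It was 1.84 in cDC2-like cells with a lead of 1 and 5.25 in interstitial macrophage-like cells with clusters. The cause was not tested. With 10 CPM added in place of 1, 3 members passed the 4-fold rule in neutrophil-like cells, without Il1rn. Shares rose with depth: Il33 was in 9.59%, 26.4% and 42.8% of ATII-like cells when thinned to 500 or 2000 UMIs or not at all. Levels of Il18bp, and of classes under 50 cells, were limited by UMI numbers.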
